A study of Mus musculus with 9 samples.

Results

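Cytosolic ribosomal protein genes were compared between kidneys of young and old wild-type mice. Members were taken by gene symbol: every Rpl or Rps gene with a plain number or a paralog ending (a, l, al, x or l1), plus Rplp0, Rplp1, Rplp2 and Rpsa. Symbols ending in -ps and the Rps6k kinases were left out. The rule still took 3 genes that GENCODE vM21 classes as processed pseudogenes: Rpl32l, Rps12l1 and Rps4l. The rule found 84 members among the 13081 genes of the table, 51 of the large (60S) and 33 of the small (40S) subunit. The young group was 4 kidney libraries from wild-type mice aged 3 months, and the old group was 5 from wild-type mice aged 16 months. All were wild type, and the labels name no treatment. Strain and sex were not given in the labels. Nothing ties a library to a named animal, so p-values measure the spread between these libraries.

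Ribosomal proteins coat the ribosomal RNAs of the cytosolic ribosome, the machine that translates nuclear-encoded mRNAs. Most are needed in equal numbers per ribosome. Their mRNAs begin with a 5′ terminal oligopyrimidine (TOP) tract, a run of C and T that lets mTORC1, acting through LARP1 and the 4E-BP proteins, switch their translation on or off together. In kidney, tubule cells make large amounts of transporters and enzymes and depend on this pool. Polyadenylated RNA was primed with oligo(dT) and read at transcript ends, so translation itself was not measured. Values are normalised counts, that is, the reads on a gene after division by the library's size factor.

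The libraries held 4486406 to 6355095 reads over the listed genes. The title prefixes follow age, so preparation or sequencing differences cannot be told apart from age. Mitochondrial genes took 27.0 to 29.7% of the reads in young and 35.8 to 38.1% in old libraries, and the mitochondrial ribosomal RNAs 2.98 to 4.46% and 21.8 to 25.4%. All 8 proximal tubule markers were in the table, and their summed level overlapped between ages (39862 to 43890 young, 39662 to 53500 old). Of the 8, however, 7 were called, 3 higher and 4 lower in old. Among all genes tested, 59.7% were called, 29.2% higher and 30.5% lower. Among genes averaging 100 or more normalised counts, 72.5% were called. The distal nephron and collecting duct markers summed to 12743 to 13534 in young and 15280 to 18293 in old libraries. Yet 5 of the 11 were lower (45.5%) and 3 higher (27.3%), beside 30.5% and 29.2% of all genes. The endothelial markers summed to 1306 to 1434 and 1625 to 1846. The 11 of 12 immune markers in the table summed to 1468 to 2078 in young and 2493 to 4770 in old libraries. The 6 stromal markers summed to 1563 to 1941 and 860.0 to 1483, with 4 lower (66.7%) and 1 higher (16.7%). The 4 adipocyte markers in the table summed to 269 to 1009 and 56 to 829, with Plin1, Cidec and Adipoq each at 0 in 1 or more libraries. Their part in the differences below was not tested. Fewer cells of a type and less RNA per cell cannot be told apart in whole kidney.

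Ribosomal protein mRNAs were lower in old kidneys as a summed pool, but the genes did not move as one. The members took 3.15, 3.13, 3.05 and 3.25% of the reads in the young libraries. In the old libraries they took 2.42, 2.44, 2.33, 2.23 and 2.09%. Every old library lay below every young one, and the mean changed by -0.84 percentage points (3.14 ± 0.081% young, SD, n = 4; 2.30 ± 0.15% old, SD, n = 5). No test was made on this sum. Without mitochondrial genes in the total, the share was 4.38 ± 0.12% in young (SD, n = 4) and 3.68 ± 0.23% in old libraries (SD, n = 5), and the groups again did not overlap.

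Summed shares were lower in old for both subunits. The 60S members took 1.78 to 1.93% of the reads in young and 1.28 to 1.45% in old libraries, an old to young ratio of 0.745. The 40S members took 1.27 to 1.32% and 0.811 to 1.02%, a ratio of 0.717. Reads on 40S members divided by reads on 60S members came to 0.686 to 0.717 in young and 0.634 to 0.719 in old libraries. These ranges overlapped, with old replicates 4 and 5 at the low end (0.651 and 0.634).

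**Figure D1:**
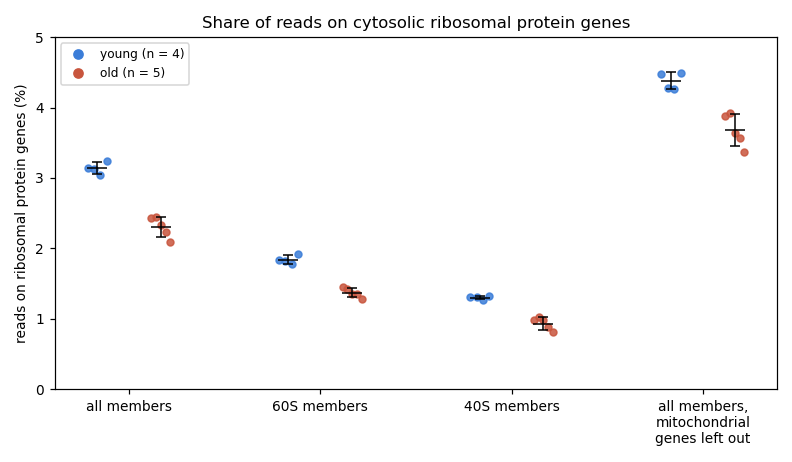
Share of each library's reads (%, y axis) on all cytosolic ribosomal protein genes, on the 60S and 40S members and on all members with mitochondrial genes left out of the total. Points are libraries (blue, 4 young; red, 5 old), black bars are means ± SD; in each of the 4 columns all old points lie below all young points.

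Gene by gene, 82 of the 84 members passed the filter, which asked for 10 or more normalised counts in 4 or more libraries. The 2 others, Rpl32l and Rps12l1, had 5.43 to 19.1 and 2.03 to 14.9 normalised counts over the 9 libraries. Differences were tested with limma on log2(normalised count + 1) over all 12667 genes tested, with Benjamini-Hochberg adjustment over them. At an adjusted p under 0.05, 60 members (73.2%) were called, against 59.7% of all genes tested. By direction, 48 members (58.5%) were lower and 12 (14.6%) higher in old kidneys, where 30.5% of all genes were lower and 29.2% higher. The groups did not overlap in 55 members (67.1%), against 49.0% of all genes. With a change of at least 1.5-fold as well, 37 members were lower and 3 higher, against 23.6% and 21.6% of all genes.

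Well-counted members were called about as often as other such genes, but more often as lower. Among genes averaging 100 or more normalised counts, 59 of 80 members (73.8%) were called and so were 72.5% of all such genes. There, 47 members were lower and 12 higher, against 36.4% and 36.1% of the genes. The median log2 fold change was -0.50 for the members and -0.0027 for all genes tested. Member changes were spread from -3.24 to 0.85, with an SD of 0.83 beside a median standard error of 0.10. The spread among members was wider than the error of each. It was no wider than over all genes tested, where the SD was 0.99 and the median standard error 0.18.

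Transcript length and scaling moved the split. Members have short model transcripts, with a median of 843 bases against 2914 for all genes tested. Across 12433 genes, log2 fold change and length had a Spearman's rho of 0.27, and across the 82 members 0.11. With the length trend removed from each library, 36 members were lower and 29 higher, where 28.9% of all genes were lower and 29.2% higher (58.1% called in either direction). The members' median was then -0.20. With mitochondrial reads removed and the remaining genes scaled to equal totals, 42 were lower and 19 higher, where 25.1% of genes were lower and 35.4% higher (60.5% called in either direction). That scaling moved the median of all genes to 0.13.

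**Figure D2:**
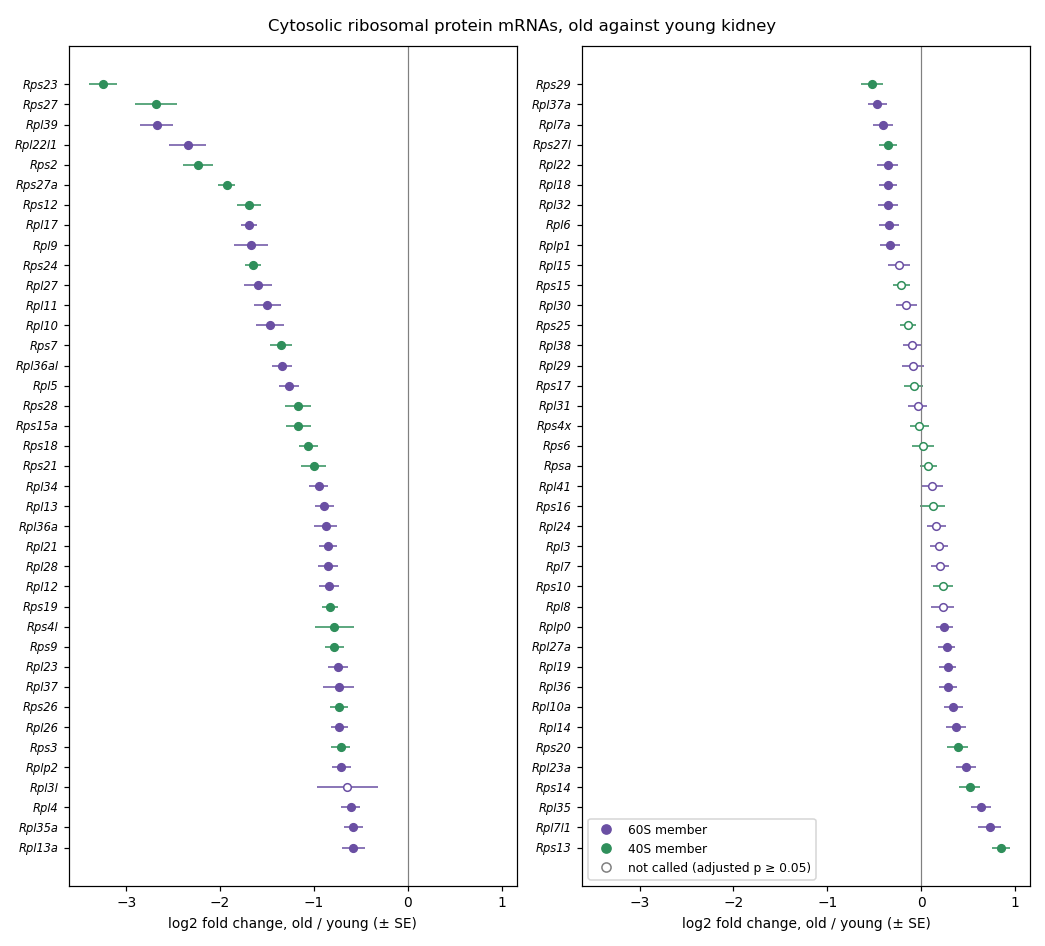
Log2 fold change, old over young (x axis, ± standard error), of 78 of the 82 members tested, sorted from Rps23 (-3.24) to Rps13 (0.85). Purple points are 60S and green points 40S members; the 19 open points were not called, and members of both subunits lie along the whole range.

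Members with the largest falls came from both subunits. Rps23, a protein of the decoding centre where the tRNA is matched to its codon, fell the most. It had 821, 911, 900.1 and 760.4 normalised counts in the young libraries and 113, 103, 100.4, 67.2 and 69 in the old ones. Its log2 fold change was -3.24 ± 0.15 (SE, limma adjusted p = 4.33e-12). All old libraries were far below all young ones. Rps2, which lies at the mRNA entry channel, had 1909, 1947, 1817 and 1864 normalised counts in young and 408, 613, 452, 282 and 318 in old libraries. It fell by 2.24 ± 0.16 on the log2 scale (SE, limma adjusted p = 1.25e-09). Old replicate 2 was the highest of its age and still far below the young libraries.

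Rps27, a zinc-binding 40S protein, had 1577, 1923, 1769 and 1401 normalised counts in young and 262, 525, 259.6, 206 and 154 in old libraries. Its log2 fold change was -2.68 ± 0.23 (SE, limma adjusted p = 1.09e-08), the groups did not overlap, and old replicate 2 stood above the other old libraries. Rps27a, made as a fusion with ubiquitin, had 2079, 2166, 2059.9 and 2050.5 normalised counts in young and 559, 629, 547, 517 and 499.7 in old libraries. It fell by 1.93 ± 0.090 on the log2 scale (SE, limma adjusted p = 4.9e-12), with a narrow spread at both ages. Rps12, of the 40S head, had 3018 to 3179 normalised counts in young and 736 to 1266 in old libraries. Its change was -1.69 ± 0.13 (SE, limma adjusted p = 4.34e-09), with old replicates 4 and 5 lowest.

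On the large subunit, Rpl39 fell the most among members with a role at the exit tunnel, through which the new protein chain leaves. It had 3455, 3844, 3633 and 3176 normalised counts in young and 457, 942, 626, 473 and 396 in old libraries. The fitted log2 change was -2.67 ± 0.18 (SE, limma adjusted p = 4.01e-10), and the highest old library (replicate 2) remained far below the lowest young one. Rpl17, another tunnel protein, had 1595, 1540.1, 1569 and 1466 normalised counts in young and 441, 509, 496, 463 and 479 in old libraries. It changed by -1.69 ± 0.087 (SE, limma adjusted p = 1.5e-11), and the old libraries were close to each other. Rpl22l1, the paralog of Rpl22, had 471, 348, 350.0 and 404 normalised counts in young and 53, 121, 95.3, 56.9 and 72.1 in old libraries. Its change was -2.35 ± 0.20 (SE, limma adjusted p = 1.04e-08), with no overlap.

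In all, 21 of the 82 tested members fell by 1 or more on the log2 scale, as did 13.9% of all genes. Many share sequence with pseudogenes or other genes, which can split or remove reads. Across the tested members, a median of 48.6% of the 50-base stretches in the last 500 bases of the model transcript occurred in another gene. Of the 21, 4 had no such shared stretch, among them Rps24, Rpl5 and Rps15a, which fell by 1.65, 1.27 and 1.17 on the log2 scale. Their model transcripts are long, with 1613, 2045 and 5179 bases beside a member median of 843. Whether the counted reads came from the last 500 bases of the model was not tested, here or for the 20 members below. Rps24 had 2074 to 2333 normalised counts in young and 645 to 753 in old libraries, and Rps15a 1481 to 1632 and 499.7 to 918. Among the 20 members that shared at most 5%, 12 were lower and 3 higher, with a median of -0.68, beside 30.5% and 29.2% of all genes. Spearman's rho between shared share and log2 fold change was -0.033 over the 82 members, whose points share their libraries.

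**Figure D3:**
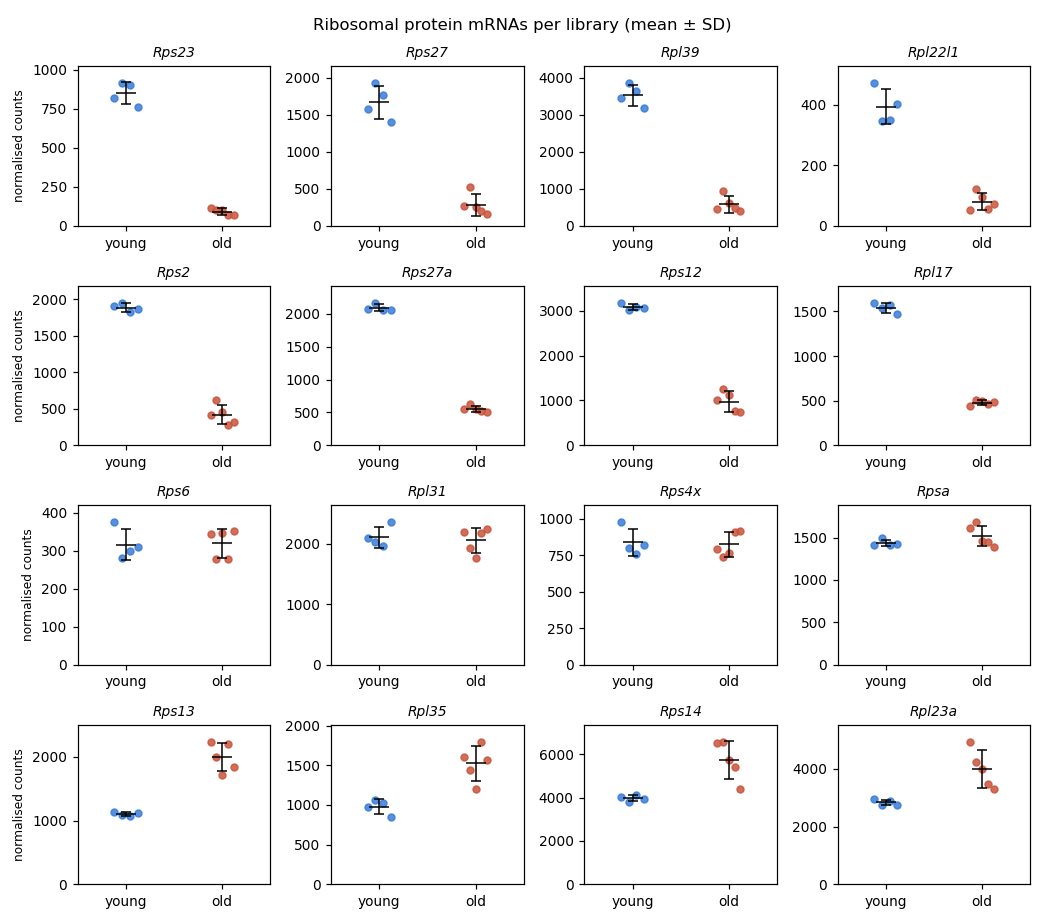
Normalised counts (y axis, from 0) of 16 members in the 4 young (blue) and 5 old (red) libraries, with mean ± SD in black. The first 8 panels are the largest falls, the next 4 are members that were not called and the last 4 are members that were higher in old; groups overlap only in the third row.

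Members that rose changed less. Rps13, a 40S protein that joins early in assembly, had the largest rise. It had 1133, 1081, 1078 and 1126 normalised counts in young and 2238, 1999, 1717, 2202 and 1838 in old libraries. The fitted log2 change was 0.85 ± 0.095 (SE, limma adjusted p = 4.21e-07), and all old libraries lay above all young ones. Rpl35, at the rim of the exit tunnel, had 968, 1059, 1027 and 844 normalised counts in young and 1604, 1441, 1203, 1796 and 1571 in old libraries. It rose by 0.64 ± 0.11 (SE, limma adjusted p = 7.26e-05), with old replicate 3 closest to the young range.

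Rps14, a platform protein near the mRNA exit, had 4018, 3793, 4132 and 3917 normalised counts in young and 6528, 6578, 5734, 5435 and 4395 in old libraries. It changed by 0.52 ± 0.11 (SE, limma adjusted p = 0.000613). Old replicate 5 was lowest and remained above the young libraries. Rpl23a, the docking site for factors that meet the nascent chain, had 2961, 2765, 2877 and 2759 normalised counts in young and 4942, 4252, 3984, 3474 and 3296 in old libraries. It changed by 0.48 ± 0.11 (SE, limma adjusted p = 0.00106), without overlap. Rps20, Rpl14 and Rpl10a, the last a protein of the L1 stalk, rose by 0.39, 0.37 and 0.34 on the log2 scale (limma adjusted p = 0.00562, 0.0056 and 0.008), and none overlapped. The eighth, Rpl7l1, is given with its pair.

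A further 22 tested members were not called, and Rps6, Rps4x and Rpl31 were the 3 closest to no change. Rps6, the substrate of S6 kinase used as a readout of mTORC1 activity, had 375, 282, 299 and 309.6 normalised counts in young and 344, 278, 347, 278 and 352 in old libraries. Its log2 fold change was 0.015 ± 0.12 (SE, limma adjusted p = 0.919). The 2 ages covered nearly the same range. Rps4x had 759 to 975 in young and 736 to 919 in old libraries, and Rpl31, at the tunnel rim, 1966 to 2358 and 1761 to 2249. All of these ranges overlap. With the length trend removed, each of these 3 was called higher in old (log2 fold changes 0.33 to 0.40), and their sign also changed under some other scalings.

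The P-stalk recruits the elongation factors, and its parts went in different directions. Rplp0, its base, had 2473, 2299.9, 2493 and 2692 normalised counts in young and 3200.2, 2935, 2685, 3157 and 2805 in old libraries. The change of 0.25 ± 0.090 (SE) was called at an adjusted p of 0.0249 (limma), but the ranges overlapped and 7 alternatives ended the call (adjusted p 2.2e-05 to 0.092 over all of them). Rplp1 had 6708 to 7387 normalised counts in young and 4901 to 6579.5 in old libraries. It fell by 0.33 ± 0.10 on the log2 scale (SE, limma adjusted p = 0.00886), and turned to 0.060 (adjusted p = 0.58) with the length trend removed. Its call was also lost with mitochondrial genes left out (-0.19, adjusted p = 0.11), in a range of 0.0019 to 0.58. Rplp2 had 2435 to 2810.0 and 1409 to 1867, a fall of 0.71 ± 0.097 on the log2 scale (SE, limma adjusted p = 4.7e-06). Rpl12, at the stalk base, had 792 to 886 and 383 to 548, a fall of 0.84 ± 0.11 (SE, limma adjusted p = 1.86e-06). The last 3 did not overlap between ages.

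The partners of 5S rRNA, Rpl5 and Rpl11, can bind Mdm2 when not built into ribosomes. Rpl5 had 534, 599.5, 548 and 454 normalised counts in young and 203, 235, 229, 205 and 231 in old libraries. It fell by 1.27 ± 0.11 on the log2 scale (SE, limma adjusted p = 1.14e-08). Rpl11 had 2306, 2040.5, 2068 and 2098 in young and 694, 1047, 899.5, 673 and 549.5 in old libraries. Its log2 fold change was -1.496 ± 0.14 (SE, limma adjusted p = 4.58e-08). Neither gene overlapped between ages.

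Other neighbourhoods of the ribosome were mixed, in groups that were drawn up with these values known. Of 9 members along the exit tunnel, 5 were lower (Rpl39, Rpl17, Rpl26, Rpl4 and Rpl22) and 3 higher (Rpl35, Rpl23a and Rpl19), and Rpl31 was not called, where 30.5% of all genes were lower and 29.2% higher. Without young replicate 2, Rpl19 was no longer called (adjusted p = 0.054, in a range of 3e-06 to 0.054). Of 4 at mRNA entry and decoding, Rps23, Rps2 and Rps3 were lower and Rps15 was not called (-0.21, adjusted p = 0.0565, in a range of 0.0093 to 0.51 over the alternatives). It was called lower by DESeq2, by scaling to the table total or to the total without members, and without old replicate 4 or 5. Of 4 near the mRNA exit, Rps28 and Rps26 were lower (-1.17 and -0.74) and Rps14 was higher. Rpsa, also known as the laminin receptor precursor, was not called (0.077). Rpsa had 1413 to 1493 normalised counts in young and 1391 to 1680.2 in old libraries.

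The members with the highest mean counts were Rplp1, Rps14, Rpl27a and Rps29. Rpl27a, a 60S protein, had 4183 to 4616 normalised counts in young and 4668 to 5739 in old libraries, a change of 0.27 ± 0.093 (SE, limma adjusted p = 0.0177). Without young replicate 2 its adjusted p was 0.06, in a range of 8.7e-06 to 0.06 over the alternatives. Rps29, a small zinc-binding 40S protein, had 5610.3 to 5896 and 3105 to 5002, a fall of 0.53 ± 0.12 on the log2 scale (SE, limma adjusted p = 0.00074). Its adjusted p was 0.071 with the length trend removed, the highest of any alternative (6.4e-05 to 0.071). The most abundant mRNAs thus include both directions. Over the 82 members, mean count and log2 fold change had a Spearman's rho of 0.28, a description of genes that share libraries.

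Old libraries varied more than young ones. The median SD of log2 values was 0.19 in old and 0.091 in young libraries over the 82 members, and the old SD was larger in 69 of them. Over all genes tested these SDs were 0.28 and 0.18, and the old SD was larger in 9358 of 12667. Among the 48 members that were lower, old replicate 2 had the highest value of its age in 32 and old replicate 5 the lowest in 25. Their median deviations from the old mean were 0.22 and -0.20 on the log2 scale. Among the 12 that were higher, old replicate 2 was highest in 1 and old replicate 5 lowest in 2. Whether the libraries ranked differently between these members was not tested.

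**Figure D4:**
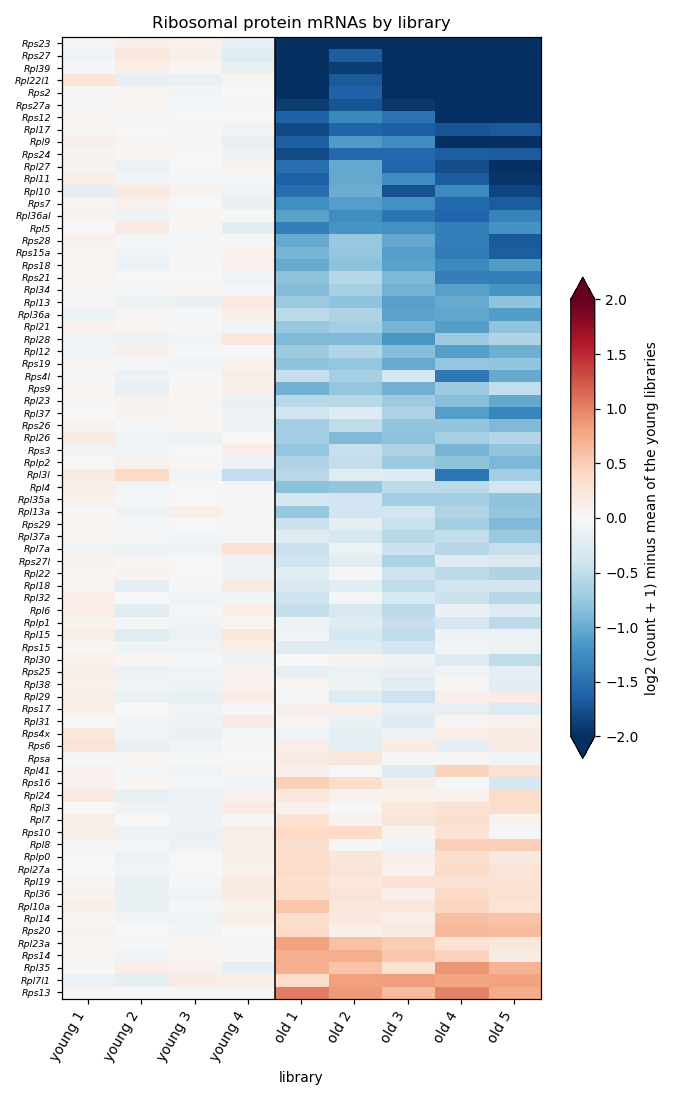
Log2(normalised count + 1) of 78 of the 82 members tested, minus the mean of the young libraries, by library (columns) and gene (rows, sorted by log2 fold change; colours end at -2 and 2). Old replicate 2 is paler than the other old libraries in the falling genes at the top, and the rising genes at the bottom are red in all 5 old libraries.

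Several ribosomal proteins have a paralog that can take their place, and 5 pairs were tested by an exact two-sided permutation test of the log2 ratio of paralog over main gene, adjusted over the 5 (smallest possible p = 0.0159). For Rpl22l1 over Rpl22, the log2 ratio was -1.99, -2.46, -2.39 and -2.06 in young and -4.88, -3.86, -3.83, -4.46 and -4.04 in old libraries. The difference was -1.99 (exact permutation p = 0.0159, adjusted p = 0.0265). Rpl22, a protein best known in lymphocyte development, itself had 1690.2 to 1918 normalised counts in young and 1204 to 1781 in old libraries and was called lower (-0.36 ± 0.11, SE, limma adjusted p = 0.00876). That call was lost with the length trend removed (adjusted p = 0.16, in a range of 0.00083 to 0.16) and with mitochondrial genes left out.

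For Rps27l, a p53 target, over Rps27, the log2 ratio was -0.13, -0.49, -0.40 and -0.16 in young and 1.96, 1.13, 1.76, 2.44 and 2.84 in old libraries. The difference was 2.32 (exact permutation p = 0.0159, adjusted p = 0.0265), and the paralog passed its main gene in every old library on this count scale. Of the 50-base stretches at their transcript ends, 98.6% in Rps27 and 22.4% in Rps27l occurred in another gene. Reads with several alignments were left out, so the counts do not show which of the 2 mRNAs was more abundant. Both mRNAs fell, Rps27l only by 0.36 ± 0.096 on the log2 scale (SE, limma adjusted p = 0.00349), from 1255 to 1436 to 880.3 to 1149.7 normalised counts. With the length trend removed the call on Rps27l was lost and the sign turned (log2 fold change 0.035, adjusted p = 0.76, in a range of 0.00037 to 0.76). Rpl36al over Rpl36a had -0.38, -0.67, -0.49 and -0.67 in young and -1.09, -1.18, -0.94, -1.10 and -0.77 in old libraries. Its difference was -0.47 (exact permutation p = 0.0159, adjusted p = 0.0265). Both genes fell, Rpl36al by 1.34 and Rpl36a by 0.87 on the log2 scale.

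The other pairs did not pass. Rpl7l1, a paralog of Rpl7 with a role in making the large subunit, had 158, 152, 190.2 and 187 normalised counts in young and 222, 304, 307, 298 and 299 in old libraries. It rose by 0.73 ± 0.12 (SE, limma adjusted p = 6.08e-05). Rpl7 was not called (0.20 ± 0.094, SE, limma adjusted p = 0.076). Their log2 ratio differed by 0.53, with overlap (exact permutation p = 0.0476, adjusted p = 0.0595). Rpl3l, a paralog of striated muscle, was near the floor of the table with 13.6 to 26.2 normalised counts in young and 6.53 to 16.4 in old libraries. Rpl3 had 846 to 1027 and 923 to 1172, and the ratio differed by -0.83 (exact permutation p = 0.0635, adjusted p = 0.0635).

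**Figure D5:**
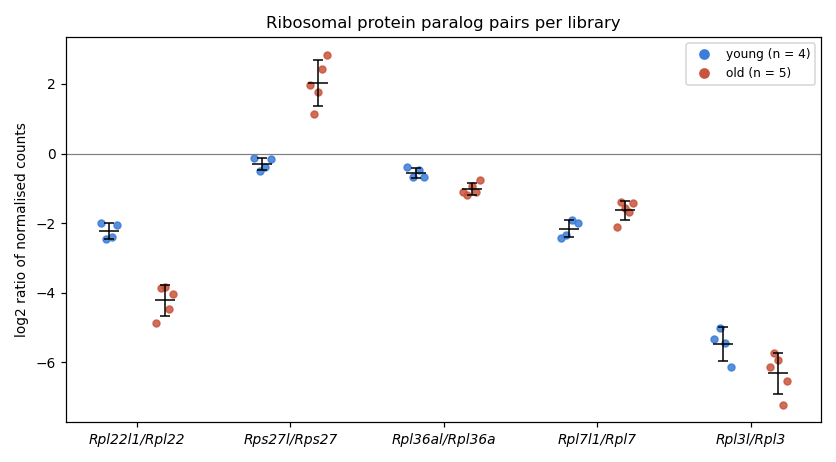
Log2 ratio of normalised counts (y axis), paralog over main gene, for 5 pairs in the 4 young (blue) and 5 old (red) libraries, with mean ± SD in black. The Rpl22l1, Rps27l and Rpl36al pairs do not overlap between ages, and Rps27l over Rps27 crosses 0.

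Start sites of 8 members are shown because TOP tracts begin there and because these genes fell (Rps23, Rps27, Rpl39, Rps2), were not called (Rps6) or rose (Rps13, Rpl35, Rpl14). Each stretch runs from 20 bases before the annotated start, in RefSeq sequence of build GRCm38.p6, on the gene strand, with the longest run of C and T in capitals.
Rps23, chr13:90923102-90923131, plus strand: acggggccttcggctgggcggggCTTCCCg
Rps27, chr3:90213639-90213668, minus strand: acaggatttccgctttcgCTCCTTTCCggc
Rpl39, chrX:37085213-37085242, minus strand: CCCCCCCTaagctccgcctctagcgacttc
Rps2, chr17:24720043-24720072, plus strand: tgcgtaggcagtcgagatctcgcgCTTCTT
Rps6, chr4:86857358-86857387, minus strand: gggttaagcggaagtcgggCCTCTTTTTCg
Rps13, chr7:116334181-116334210, minus strand: cgcgcgagagcaaacgTCggtgagtggcgt
Rpl35, chr2:39005122-39005151, minus strand: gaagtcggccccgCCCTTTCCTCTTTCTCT
Rpl14, chr9:120571497-120571526, plus strand: cggcagggcgggCCCTCTCTCTTCTCgctg

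Within these stretches the longest runs were 6 to 9 bases in the members that fell, 10 in Rps6, and 17, 14 and 2 in the members that rose (Rpl35, Rpl14 and Rps13). The run in Rpl39 lies at the far end of the stretch and not at the annotated start. RefSeq windows of 250 bases before to 50 after the start were matched for 62 of the 84 members. The median longest run of C and T touching the 20 bases on either side of the start was 9 bases in members and 5 in the 9620 tested genes with a window. By call it was 9 in the 40 lower, 10.5 in the 8 higher and 7 in the 13 members that were not called. The letters CTCTTT, searched on the gene strand, stood in 23 of the 62 members (37.1%), in 12.6% of the tested genes and in 13.7% of all 27025 genes with a window. They stood in 20 of 40 members that were lower, 2 of 8 that were higher and 1 of 13 that were not called. CTTTCC, on the gene strand, stood in 40.3% of members, 17.3% of the tested genes and 16.0% of all genes, and in 16 of 40, 4 of 8 and 5 of 13 by call. Of the members, 12 held both it and CTCTTT, which can overlap. CCGGAAG, searched on both strands, stood in 38.7% of members, 20.1% of the tested genes and 9.93% of all genes, and in 13 of 40, 3 of 8 and 8 of 13 by call. TATAAA, on the gene strand, stood in 11.3%, 5.37% and 9.77%. These are counts of letters, with no test.

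The table also held ribosomal proteins whose symbols the rule did not take. Fau, Rack1 (a scaffold on the 40S head) and Rps3a1 had log2 fold changes of 0.18, 0.22 and -0.063. None of these 3 was called, and all overlapped between ages. With the length trend removed all 3 were called higher (0.31 to 0.58), and with mitochondrial genes left out Fau and Rack1 were. Of 14 listed pseudogenes and retrogenes, 11 passed the filter, some only through the age at which they were high, so their calls are not counted here. How many of their reads came from the parent genes was not tested.

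Introns of 29 members hold snoRNA genes, which guide the chemical modification of ribosomal RNA. The table listed 5 of these 56 snoRNAs, which had few or no reads in young libraries and so were listed through their reads in old ones, and their direction is no result. Snord15a, inside Rps3, had 0 in every young library and 12.2 to 28.6 in the old ones, and its host was lower (-0.72). Members with a snoRNA inside had a median of -0.61 (19 lower and 4 higher of 29), and the others -0.36 (29 lower and 8 higher of 53), where 30.5% of all genes were lower and 29.2% higher. The difference between these medians was not tested.

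Other TOP mRNAs, mostly translation factors, were also more often lower than higher. Of 25 listed, 16 were lower (64.0%) and 2 higher (8.0%), against 30.5% and 29.2% of all genes, with a median of -0.67. The 16 include Snhg8, a noncoding snoRNA host, which had 233 to 266 normalised counts in young and 1.18 to 28.4 in old libraries. It passed the filter only through the young libraries, so its direction is no result. Eif3m, a subunit of initiation factor eIF3, fell by 1.87 on the log2 scale. Pabpc1, the poly(A)-binding protein, rose by 0.60 (limma adjusted p = 1.56e-05), and Eef1b2, an elongation factor subunit, by 0.38.

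Genes that build ribosomes were lower and higher in near equal numbers. Of 72 assembly factors, 22 were lower (30.6%) and 20 higher (27.8%), close to the shares over all genes, and the median was 0.074. Gar1, of the H/ACA snoRNPs, had 47.1 to 56.5 normalised counts in young and 5.89 to 12.2 in old libraries. It is among the 22, but passed the filter only through the young libraries, so its direction is no result. Heatr3, which imports Rpl5 and Rpl11, fell by 1.71 on the log2 scale. Ftsj3, a pre-rRNA methyltransferase, rose from 31.1 to 36.2 to 112 to 147 (1.90, limma adjusted p = 5.46e-09), and Wdr43 by 1.35. Of 14 RNA polymerase I genes in the table, 5 were lower (35.7%, against 30.5% of all genes), led by Polr1d (-1.79) and Polr1f (-1.14), and 3 higher (21.4%, against 29.2%), led by Ubtf (0.88), which binds ribosomal DNA, and Polr1a (0.85), the largest subunit of the polymerase. With the length trend removed Polr1a was no longer called (0.36, adjusted p = 0.085, in a range of 6.1e-05 to 0.085).

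Among 20 regulators of TOP mRNAs and ribosome rescue genes in the table, 8 were lower and 4 higher. These 12 calls among 20 are about the share called over all genes tested (59.7%; 30.5% lower and 29.2% higher). Eif4ebp2, a 4E-BP that holds back cap-dependent initiation, had 1362 to 1959 normalised counts in young and 456 to 826 in old libraries (-1.46, limma adjusted p = 1.7e-07). G3bp1, of stress granules, fell by 1.16 on the log2 scale. Ltn1, the ligase that marks stalled nascent chains, rose by 0.94. Rps6kb1, the S6 kinase whose substrate Rps6 was not called, had 93.3 to 132 normalised counts in young and 128 to 210.0 in old libraries, with overlap (0.61, limma adjusted p = 0.00311; 0.053 with the length trend removed, in a range of 0.00052 to 0.053).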

How the data were processed

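Members, lists and groupings were chosen with earlier results of these data known. Per the labels, total RNA from kidney was made into 3′ end libraries with oligo(dT) priming; labels and methods name different kit versions. The authors aligned reads to GRCm39 with TopHat2 2.0.10, used HTSeq 0.6.1 for strand-specific gene counts and divided by DESeq size factors. The deposited signal is normalised counts per gene, and 100% of values were whole multiples of 1 read (within 0.001 reads). HTSeq leaves out reads with several alignments. The precision is set by these 9 libraries; counts without molecular identifiers are not independent molecules.

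limma 3.58.1 (R 4.3.3, variance trend) was run on log2(normalised count + 1), which understates changes of low genes, on genes that reached 10 normalised counts in 4 or more libraries. Paralog ratios were tested by exact permutation with SciPy 1.17.1. edgeR 4.0.16 and DESeq2 1.42.0 on recovered reads, other pseudocounts, filters and scalings, removal of length or GC trends (lowess) and leaving out each library were alternatives. The code was tested on simulated data. Gene models were GENCODE vM21 (GRCm38), matched by symbol for all 84 members. Named genes were the 8 largest rises and falls among called members averaging 50 or more normalised counts, the 5 closest to no change and the 5 of largest mean, P-stalk, 5S partner, paralog and other fixed genes, and 2 each way per related list; some of these genes are not reported here and are not drawn, but stay in counts and sums.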

Additional observations from a re-analysis of the deposited data

Results flagged for a closer look

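Of 126 sets of young or old libraries examined (named genes, summed shares and paralog ratios), 1 held a library that stood apart by Dixon's criterion, where chance gives about 1 in 20. Rpl7l1 in old replicate 1 had a log2 normalised count of 7.80, below the 8.22 to 8.27 of the other old libraries. It was still above the highest young library, and the reason was not tested.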

How the results depend on the processing

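The number of members called was 57 to 65 under the alternatives that tested the same genes, with 60 by edgeR and 61 by DESeq2, and the members' median stayed below 0 in each. Leaving out each library gave 57 to 63 called, 8 to 15 higher and 48 to 49 lower; 8 was without young replicate 2. The number higher rose from 12 to 19 with mitochondrial genes left out and to 29 with the length trend removed. Members with at most 5% shared sequence, a choice made after the data were seen, gave 15 called of 20, 3 higher and 12 lower, where 59.7% of all genes were called; fewer genes were tested. Other TOP mRNAs gave 4 higher with mitochondrial genes left out. Under the stricter filter (an average of 100 or more), 26 assembly factors were left, 19 called, 10 higher and 9 lower, where 72.5% of all such genes were called. The summed share stayed lower in old without mitochondrial genes and without the largest member. With each library left out in turn the difference was -0.87 to -0.79 percentage points. The sum with the length or GC trend removed is not given.

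Without 1 young library the exact test cannot give less than 0.0357, or 0.0595 after adjustment with 3 pairs at that value, so losing the call says nothing about stability. Over all 9 libraries left out in turn, the difference for Rpl22l1 over Rpl22 was -2.08 to -1.82, for Rps27l over Rps27 2.12 to 2.55 and for Rpl36al over Rpl36a -0.53 to -0.41. Rpl7l1 over Rpl7 differed by 0.45 to 0.65 and passed without old replicate 1 (0.65, adjusted p = 0.0357), and Rpl3l over Rpl3 by -1.06 to -0.61 and passed without young replicate 4 (-1.06, adjusted p = 0.0446). The 2 ages were separate groups of libraries with no pairing between them, so no paired analysis was made.

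Among 54 named genes under 21 alternatives, the 8 rises and 8 falls kept direction and call. Signs turned for 6 others. Rps6 was -0.037 scaled to the table total, and -0.050 scaled to the total without members. With mitochondrial genes left out, Rps4x was 0.12, Rpl31 0.10 and Rps3a1 0.079. With the length trend removed, Rps4x was 0.36, Rpl31 0.33, Rplp1 0.060, Rps27l 0.035 and Rps3a1 0.31. Leaving out libraries in turn gave -0.037 to 0.10 for Rps6, -0.066 to 0.054 for Rps4x and -0.072 to 0.017 for Rpl31. Rpsa, Rpl7, Rpl3, Fau and Rack1 were called higher with the length trend removed and with mitochondrial genes left out, Rpl3 and Rack1 also with the GC trend removed, Rpl7 without old replicate 2 or 5, Rpl3 without old replicate 2 and Rack1 without old replicate 5. The cause was not tested.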
